A study of Mus musculus with 5 samples.

Results

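miR-146a and miR-146b are a pair of near-identical mouse miRNAs made from hairpins on different chromosomes. They were selected on their measured levels and on the ratio between them in each library, and taken by name (mmu-miR-146a and mmu-miR-146b) from the deposited tag tables. The 2 names, of 593 mature miRNA names counted in at least 1 library, had counts in all 5 libraries. Small RNA had been sequenced from testis cells of C57BL/6 mice in 3 groups. The culture group was 1 library of a germ cell culture started from the Thy1+ fraction and kept for about 10 passages. The Thy1+ group was 2 libraries of freshly isolated cells retained with magnetic beads against Thy1.2 and enriched for spermatogonial stem cells, which renew themselves and feed sperm production throughout adult life. The Thy1- group was 2 libraries of the fraction depleted of these cells, enriched for somatic cells by the titles, although their cell type entry repeats the stem cell name. The labels do not say whether replicates came from separate animals, so replicate spread may be technical, and the culture is 1 culture with no replicate. All donors were of 1 strain, and the labels give no age.

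A miRNA is a short RNA that guides the silencing machinery to messenger RNAs, mainly through its seed, the bases near its 5′ end. miR-146a and miR-146b are known as brakes on innate immune signalling. NF-kappaB, the transcription factor activated by Toll-like and interleukin-1 receptors, raises miR-146a, which in turn silences the signalling proteins Irak1 and Traf6 upstream of NF-kappaB. miR-146a is also abundant in several kinds of white blood cell. Thy1 marks spermatogonial stem cells in the mouse testis, and it is also carried by mouse T cells.

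The mature sequences, from RefSeq (GRCm38.p6), are shown with the seed (bases 2 to 8, counted from the 5′ end) in capitals, because the shared seed is what makes the pair comparable.
miR-146a: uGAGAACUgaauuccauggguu
miR-146b: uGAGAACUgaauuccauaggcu
Both are 22 bases long and share 20 of them. From miR-146a to miR-146b the differences are G18A and U21C, in the 3′ part. In the RefSeq table, 2 of 1738 mature mouse miRNAs carry this seed, and they are these 2. The same sequences are shown again with the differing bases in capitals, since these bases are what assigns a sequenced tag to a locus.
miR-146a: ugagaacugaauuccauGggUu
miR-146b: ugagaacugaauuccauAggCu

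The hairpins, with the mature miRNA in capitals, are shown to place each mature strand in its precursor.
miR-146a hairpin: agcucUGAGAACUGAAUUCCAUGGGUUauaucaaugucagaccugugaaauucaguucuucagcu
miR-146b hairpin: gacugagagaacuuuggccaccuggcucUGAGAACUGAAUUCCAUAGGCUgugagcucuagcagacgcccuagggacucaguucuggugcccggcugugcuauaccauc
The miR-146a hairpin lies on the minus strand of chromosome 11 at 43374397 to 43374461. No other gene of the GENCODE M21 annotation overlaps it. The nearest protein-coding gene is Pttg1, 45788 bases away. The miR-146b hairpin lies on the plus strand of chromosome 19 at 46342762 to 46342870, inside the gene Mfsd13a on the same strand and overlapping 0 of its annotated exons, so in an intron. Besides Mfsd13a, the protein-coding gene nearest to this hairpin is Cuedc2, 4059 bases away. Nfkb2, which encodes a subunit of NF-kappaB and was looked up by name, lies farther off, at 30376 bases. A link between Nfkb2 and miR-146b was not tested.

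The libraries held 5110034 counts on mature miRNAs in the culture, 937027 and 947714 in Thy1+, and 2548264 and 4909775 in Thy1-. Levels below are counts per 1000000 such counts (CPM), so they are shares of the miRNA pool. Of 5 marker lists, all members had a count in every library. The summed CPM of 9 miRNAs known from spermatogonia and stem cells (miR-182, miR-183, miR-96 and 6 products of the miR-290 cluster of embryonic stem cells) was 22984 in the culture, 53361 and 61178 in Thy1+, and 4926 and 2470 in Thy1-. In each library miR-182 and miR-183 made up most of this sum (16631 and 5225 CPM in the culture), so it says little of the miR-290 products. The summed CPM of both arms of miR-202, made by gonadal somatic cells, was 173 in the culture, 1138 and 2205 in the Thy1+ libraries, and 18584 and 3712 in the Thy1- libraries. Markers of both kinds were thus read in each library. The sum of 3 red blood cell miRNAs was 12.5 in the culture, 252 and 179 in Thy1+, and 1344 and 1475 in Thy1-, an order opposite to that of the summed pair by CPM. Sums of 4 mesenchymal miRNAs ranged from 20129 to 50443 CPM, highest in the culture. The part of these cell types in the members' levels was not tested.

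By CPM, miR-146a was highest in the Thy1+ fraction and miR-146b in the culture, and both were lowest in the Thy1- fraction. With TMM scaling, which sets the bulk of miRNAs level between libraries, miR-146a was at 4324 scaled CPM in the culture, above the 2907 and 3575 of the Thy1+ libraries, so its order between these groups depends on the scaling. In the culture miR-146a stood at 1962 CPM, the Thy1+ libraries were at 4071 and 6192 CPM, and the Thy1- libraries at 238 and 67.8 CPM. The 3 groups did not overlap, an order by CPM that 15.3% of the 470 names tested shared, and Thy1+ was at 5132 ± 1499 CPM against 153 ± 120 CPM in Thy1- (SD, n = 2 each). For miR-146b the culture stood at 6885 CPM, the Thy1+ libraries at 1362 and 998 CPM, and the Thy1- libraries at 439 and 198 CPM. Again no groups overlapped, in an order by CPM shared by 4.04% of the names, with Thy1+ at 1180 ± 257 CPM and Thy1- at 319 ± 171 CPM (SD, n = 2 each). The pair was chosen with these levels known, so they are a description and no test is given on them. In bulk cell fractions, fewer cells of a type and less RNA per cell cannot be told apart.

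Counting error, taken as if each read were an independent draw, was small beside the spread between libraries. The fewest counts of a member were 333, of miR-146a in Thy1- replicate 2, for which the 95% Clopper-Pearson interval was 60.7 to 75.5 CPM. The most were 35181, of miR-146b in the culture, with an interval of 6813 to 6957 CPM. Intervals cover counting error within 1 library only. They may be too narrow even for that, because amplified reads without molecular identifiers are not independent molecules. By rank among all names with a count, miR-146a ranged between place 39 of 536 in Thy1+ replicate 2 and place 222 of 547 in Thy1- replicate 2. In the culture miR-146b ranked 25 of 510 and miR-146a 52.

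**Figure D1:**
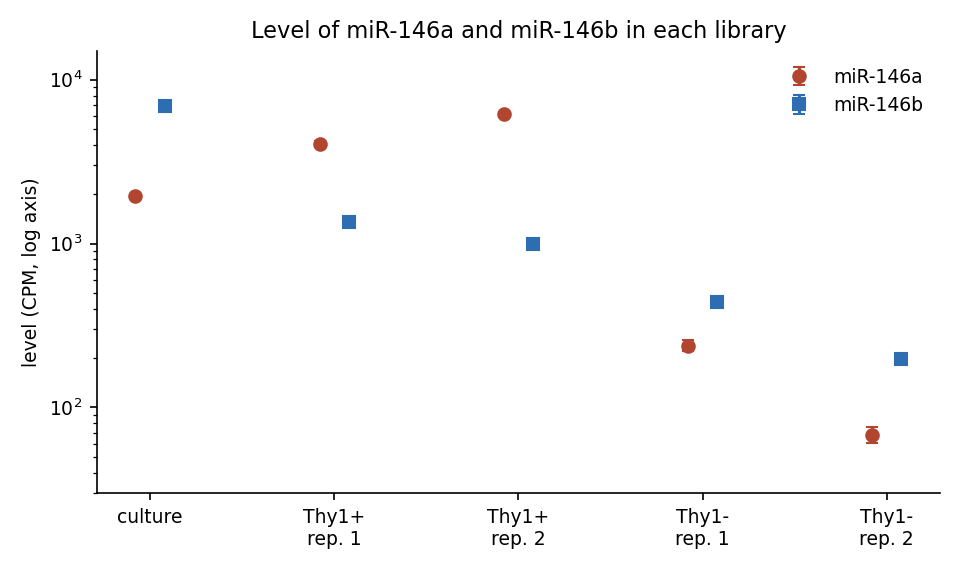
Level of miR-146a (circles) and miR-146b (squares) in each of the 5 libraries, in CPM on a log axis, with 95% Clopper-Pearson intervals where these are wider than the symbol. miR-146a is the higher member in both Thy1+ libraries (4071 and 6192 CPM) and miR-146b in the culture (6885 CPM) and both Thy1- libraries.

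Replicates differed, and not in the same way for both members. miR-146a was 3.51-fold higher in the higher Thy1- library than in the lower one, and miR-146b 2.22-fold. In the Thy1+ pair the factors were 1.52 for miR-146a and 1.36 for miR-146b, and the library with more miR-146a had less miR-146b. Thy1- replicate 1, which was higher for both members, was also higher for the summed stem cell list and for miR-202 given above. The same held for the mesenchymal sum (37487 against 20129 CPM) and for the white blood cell sum given below (2017 against 1346 CPM). The red blood cell sum went the other way (1344 against 1475 CPM). Whether these lists play a part in the difference between the Thy1- replicates was not tested.

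Log2 fold changes came from an edgeR fit over all names with TMM scaling and are given with their standard error (SE) as a description. In Thy1+ over Thy1-, the log2 fold change was 4.56 for miR-146a (SE 0.67) and 1.41 for miR-146b (SE 0.56). Both Thy1+ libraries were above both Thy1- libraries for each member, as they were for 43.5% of the 425 names tested, and the rule rests on this contrast, so nothing is read from it. Without Thy1- replicate 1 the value of miR-146a was 5.69, and without Thy1- replicate 2 it was 4.001. Scaling to total counts moved the median of all names to 0.51, against -0.07 with TMM, and gave 5.07 for miR-146a and 1.89 for miR-146b. miR-146a had the place 3 of 425 when names were ordered from the highest fold change, and miR-146b had place 109.

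In the culture over Thy1+, miR-146b had a log2 fold change of 4.18 (SE 0.64), place 4 of 470, and miR-146a one of 0.29 (SE 0.71), place 190. By CPM miR-146b was above both Thy1+ libraries, as were 12.6% of the names, and miR-146a was below both, as were 79.6%. Scaling to total counts in place of TMM moved the median of all names to -1.73, and then gave 2.54 for miR-146b and turned miR-146a to -1.39. The direction of miR-146a between culture and Thy1+ therefore depends on the scaling, and it also turned, to -0.0112, when Thy1- replicate 1 was left out of the fit. The direction of miR-146b did not change under either.

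In the culture over Thy1-, the log2 fold changes were 4.81 for miR-146a (SE 0.73) and 5.53 for miR-146b (SE 0.67), places 11 and 5 of 470. Both members were above both Thy1- libraries by CPM, as were 25.5% of the names. Under total scaling the values were 3.68 and 4.43, with the median of all names at -1.19. Both comparisons of the culture rest on that 1 library, so their values are not independent.

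**Figure D2:**
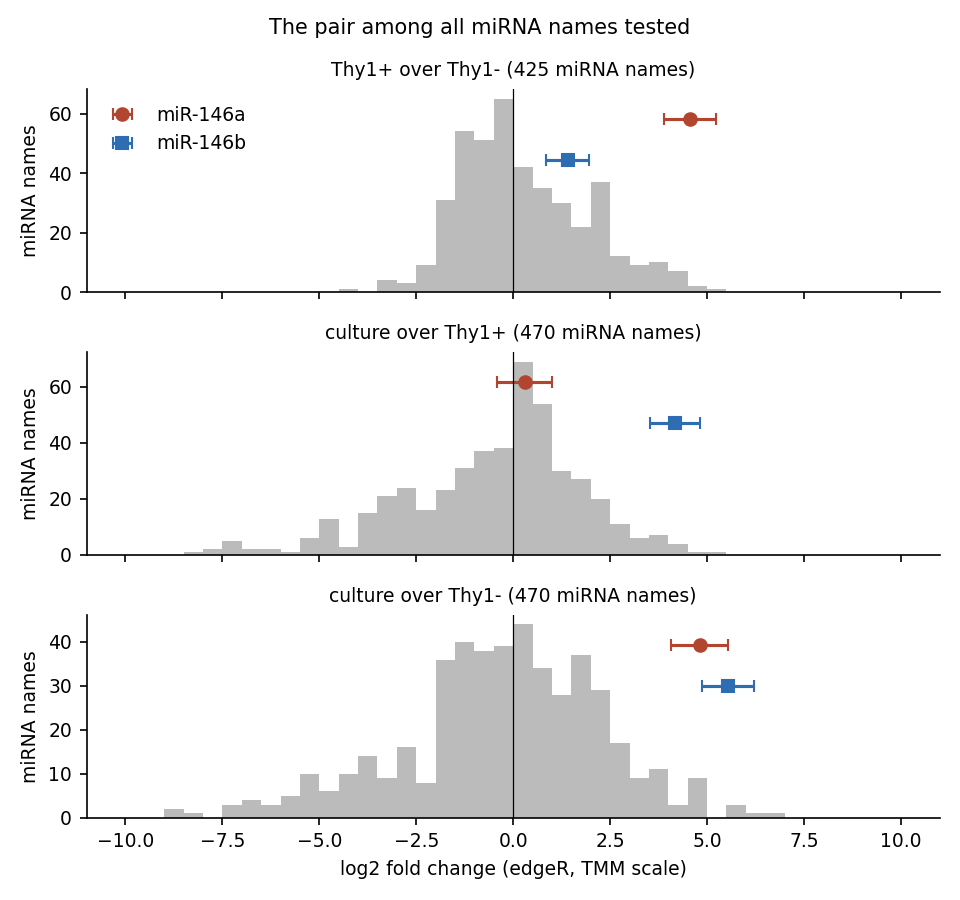
Grey bars count the miRNA names tested by log2 fold change (edgeR, TMM scale) in each comparison, and the symbols mark miR-146a (circle) and miR-146b (square) with their SE as horizontal bars, at an arbitrary height. miR-146a lies at the right edge in Thy1+ over Thy1- (4.56) and near the middle in culture over Thy1+ (0.29), where miR-146b lies at the right edge (4.18).

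The ratio of the members within a library needs no scaling between libraries. miR-146a made up 22.2% of the pair's counts in the culture (95% Clopper-Pearson interval 21.8% to 22.6%). It made up 74.9% (73.7% to 76.1%) and 86.1% (85.3% to 86.9%) in the Thy1+ libraries, a mean of 80.5% ± 7.91 (SD, n = 2). In the Thy1- libraries it made up 35.2% (32.9% to 37.5%) and 25.5% (23.2% to 28.0%), a mean of 30.3% ± 6.82 (SD, n = 2). So miR-146a was the major member in both Thy1+ libraries and miR-146b in the other 3, and the culture lay nearer to the Thy1- libraries than to the Thy1+ fraction it was started from.

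Because both members carry the same seed, their counts can also be added. The sum came to 8847 CPM for the culture, to 5433 and 7190 CPM for the Thy1+ libraries, and to 677 and 266 CPM for the Thy1- libraries. By CPM the culture was 1.40-fold above the Thy1+ mean of 6312 ± 1242 CPM (SD, n = 2) for the seed as a whole. Against the Thy1- mean of 472 ± 291 CPM (SD, n = 2), the sum was 18.8-fold higher in the culture and 13.4-fold higher in Thy1+. On the TMM scale, an alternative chosen after seeing the data, the sum was 4.86-fold higher in the culture than in Thy1+, 41.3-fold higher in the culture than in Thy1- and 8.50-fold higher in Thy1+ than in Thy1-, so only the direction was common to both scales.

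**Figure D3:**
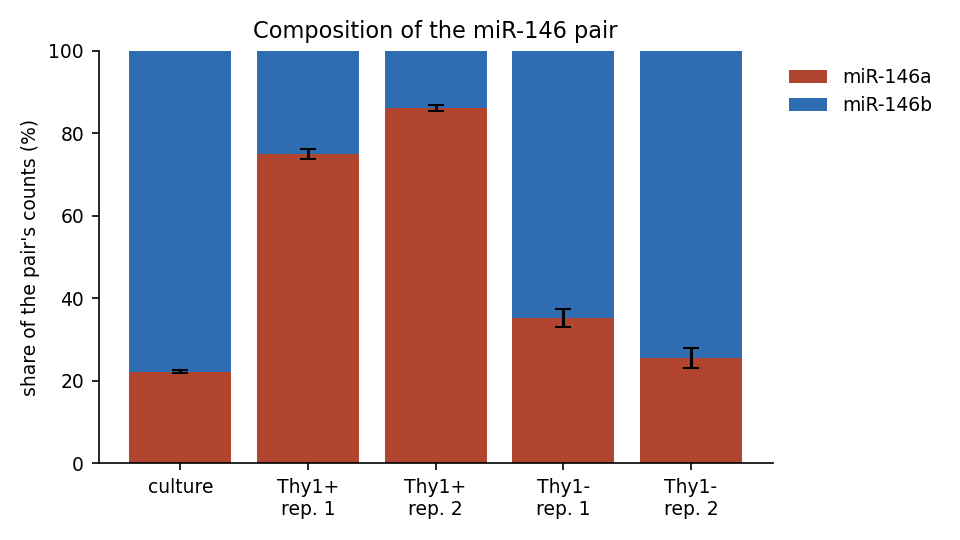
Share of miR-146a (lower, red) and miR-146b (upper, blue) in the summed counts of the pair in each library, in percent, with the 95% Clopper-Pearson interval of the miR-146a share. miR-146a holds 74.9% and 86.1% in Thy1+ and between 22.2% and 35.2% in the other libraries.

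The deposited tags can tell the members apart only where they reach base 18. Of the tags that read both differing bases, 99.2% in the culture, 99.3% and 99.4% in Thy1+, and 99.3% and 99.4% in Thy1- carried the full miR-146a or the full miR-146b combination. Mixed combinations, with 1 base of each member, numbered 115 of 43797 in the culture, 7 of 4871 and 9 of 6541 in Thy1+, and 2 of 1639 and 1 of 1245 in Thy1-. The minor member had at least 310 tags with both of its own bases in each library.

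Tags tied between the members were rare. They held 210 of the pair's 45208 counts in the culture (0.465%), 21 (0.413%) and 42 (0.616%) in Thy1+, and 8 (0.463%) and 5 (0.383%) in Thy1-. The most frequent tied tags are shown, the first ending before base 18 and the others with 1 base of each member.
tied, no differing base read: tgagaactgaattccat
tied, A at base 18 and T at base 21: tgagaactgaattccataggt
tied, G at base 18 and C at base 21: tgagaactgaattccatgggc
In the culture they had 50, 43 and 37 counts. In the fresh libraries the 17-base tag had between 1 and 27 counts and the other two between 0 and 2. Counting only tags with both own bases gave miR-146a shares of 21.97% in the culture, 80.5% ± 8.26 in Thy1+ and 30.2% ± 7.31 in Thy1- (SD, n = 2 each). These shares lay within 1 SD of those over all tags, or in the culture within the interval.

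Other miRNAs that share a number and differ by a letter were set beside the pair, a comparison chosen after the values were seen. With at least 50 CPM in every library, 67 such pairs of names were available. The log2 ratio of miR-146a to miR-146b was -1.81 in the culture, 1.58 and 2.63 in Thy1+, and -0.88 and -1.55 in Thy1-. This range of 4.44 was the widest of the 67, for which the median range was 1.32. Names of larger families, such as let-7, recur in many of these pairs, so the pairs are not independent. Some, such as miR-465b-3p with miR-465c-3p, had equal levels in every library and a range of 0. Next came miR-34a with miR-34c, whose ratio ranged over 4.33, and miR-10a with miR-10b, over 3.88. As the pair was chosen with its ratio known, its place in this order is a description.

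**Figure D4:**
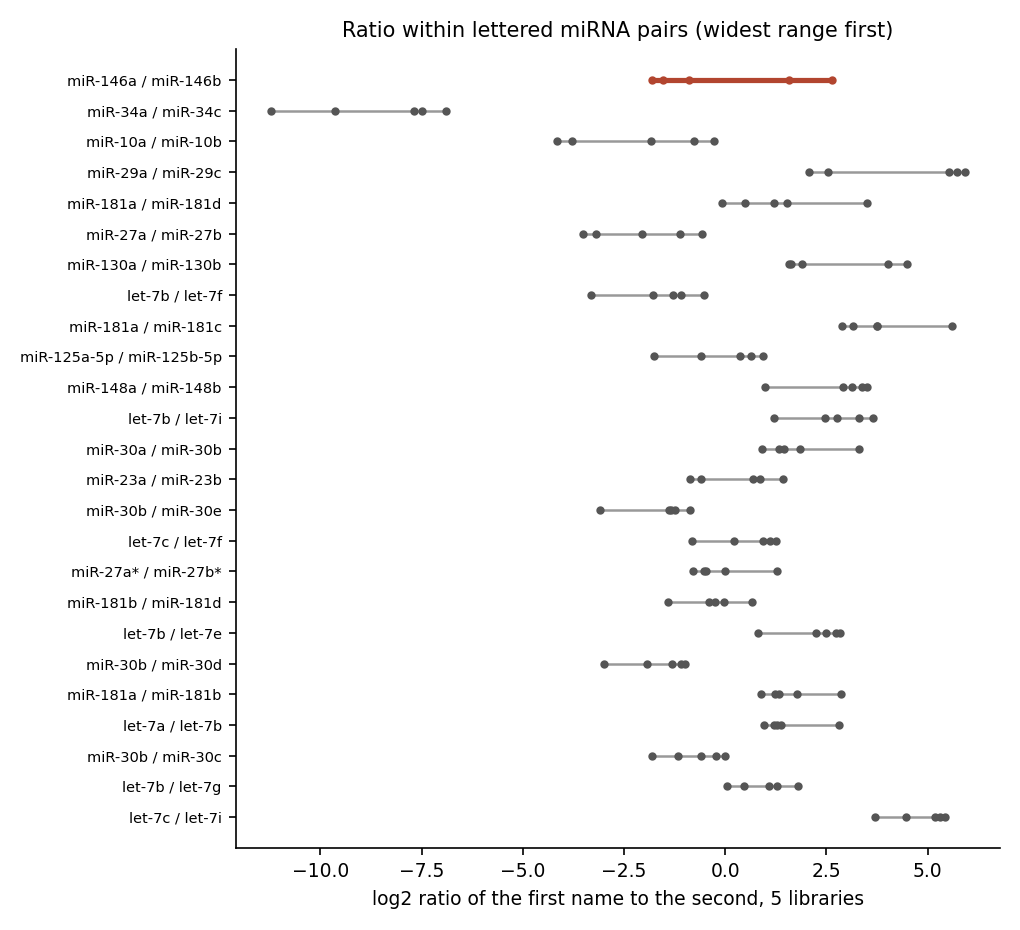
Log2 ratio of the first to the second name in each of the 5 libraries (points) and its range (line) for the 25 pairs with the widest range among 67 pairs of names that share a number and differ by a letter. The miR-146 pair (top, red) ranges from -1.81 to 2.63 and crosses 0, where both members are equal.

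The ends of the tags were not used to choose the pair. The most frequent tag of each member was its full mature sequence, followed by the form 1 base shorter. A 22-base form whose last base is an A that the hairpin does not encode there was also read. These 3 forms are shown with the added base in capitals.
miR-146a, full: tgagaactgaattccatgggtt
miR-146a, 1 base short: tgagaactgaattccatgggt
miR-146a, added A: tgagaactgaattccatgggtA
miR-146b, full: tgagaactgaattccataggct
miR-146b, 1 base short: tgagaactgaattccataggc
miR-146b, added A: tgagaactgaattccataggcA
The full form held 67.2% of the counts of miR-146a in the culture, 72.9% and 74.0% in Thy1+, and 64.4% and 68.3% in Thy1-. For miR-146b it held 60.7% in the culture, 70.2% and 60.6% in Thy1+, and 56.8% and 64.1% in Thy1-. So the full form was the larger share of each member in every library. The tables list no tag of either member that starts before base 1 or ends after base 22, so longer forms are not analysed here.

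The 5′ end, which sets the seed, was nearly uniform. Between 98.4% and 99.7% of each member's counts began at base 1 in all 5 libraries. The share was higher for miR-146a than for miR-146b in 2 of 5 libraries, with a mean difference of 0.0585 percentage points (SD 0.622, two-sided exact sign-flip permutation p = 0.938, adjusted over 3 measures 0.938).

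At the 3′ end, in each library, miR-146b was shorter and more often ended in a base other than the encoded one. There were 0.493 tags 1 base short per full tag of miR-146b in the culture, 0.307 and 0.464 in Thy1+, and 0.518 and 0.363 in Thy1-. For miR-146a the ratio was 0.351 in the culture, 0.233 and 0.214 in Thy1+, and 0.317 and 0.258 in Thy1-. Mean tag length was greater for miR-146a in 5 of 5 libraries, by 0.0778 bases on average (SD 0.0721). The two-sided exact sign-flip permutation p was 0.0625, the smallest that 5 libraries allow, and 0.0938 adjusted over 3 measures, so this did not pass. The share of counts ending in untemplated bases was lower for miR-146a in 5 of 5 libraries, by 1.31 percentage points on average (SD 0.555, same exact permutation p of 0.0625, adjusted 0.0938).

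Of the bases at base 22 that differ from the encoded U, most were A. A U added to the 21-base form matches the encoded U, so it cannot be seen. Among tags of miR-146b that match up to base 21 and read base 22, A replaced the encoded U in 733 of 22435 in the culture (3.27%), 19 of 920 (2.07%) and 9 of 587 (1.53%) in Thy1+, and 13 of 666 (1.95%) and 25 of 656 (3.81%) in Thy1-. For miR-146a, A stood there in 29 of 6868 in the culture (0.422%), 13 of 2838 (0.458%) and 20 of 4422 (0.452%) in Thy1+, and 6 of 413 (1.45%) and 3 of 232 (1.29%) in Thy1-. The share was higher for miR-146b in 5 of 5 libraries, but the 95% intervals of the members overlapped in 2 of the 5, both Thy1-. Summed over libraries, A was read 799 times at this base of miR-146b, against 77 times for C and 88 for G. For miR-146a the sums were 71 for A, 11 for C and 7 for G. A wrong base read by the sequencer and an added base cannot be told apart in a single tag.

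**Figure D5:**
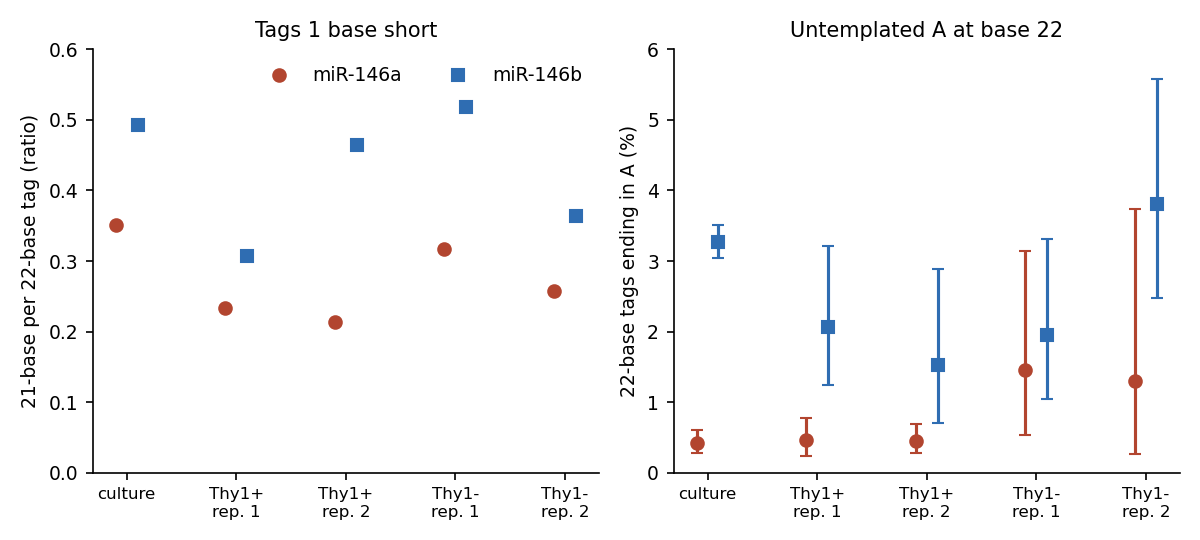
Left, number of 21-base tags per 22-base tag with a perfect match from base 1, for miR-146a (circles) and miR-146b (squares) in each library. Right, percent of tags read to base 22 that end in A in place of the encoded U, with 95% Clopper-Pearson intervals; miR-146b is above miR-146a in each of the 5 libraries in both panels.

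Between the fresh fractions, no difference in the ends of miR-146a could pass a test. Mean tag length was 21.71 ± 0.0179 bases in Thy1+ and 21.64 ± 0.00671 in Thy1- (SD, n = 2 each), and the untemplated share was 0.828% ± 0.0148 in Thy1+ and 1.33% ± 0.248 in Thy1-, without overlap. The share that began at base 1 was 99.36% ± 0.0343 in Thy1+ and 99.53% ± 0.192 in Thy1-. For each of these 3 measures the two-sided exact permutation p was 0.333, the smallest that 2 against 2 libraries allow, and 0.333 after adjustment.

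The other arm of the miR-146b hairpin, named miR-146b* in the tables, was rare. It had 23 counts in the culture, 4 and 5 in Thy1+, and 3 and 6 in Thy1-, or 4.50 CPM in the culture, 4.27 and 5.28 in Thy1+, and 1.18 and 1.22 in Thy1-. In each library it was therefore far below the 946 or more counts of miR-146b itself. The counts of 3 to 6 in the fresh libraries are at or close to the floor of 3 counts, so its ratio to miR-146b is not read further. The other arm of miR-146a was not analysed here.

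The names whose levels across the 5 libraries were most like each member did not overlap. Likeness was the root mean square difference of centred log2(CPM + 1) over the 5 libraries, among 334 other names with at least 50 CPM in some library. For miR-146a the nearest were miR-182 (0.51), miR-96 (0.68), miR-155 (0.74), miR-183 (0.85) and miR-7b (0.97). For miR-146b they were miR-216a (0.48), miR-217 (0.50), miR-222 (0.57), miR-21 (0.61) and miR-221 (0.63). The members were 1.78 apart from each other, so that miR-146b was place 74 from miR-146a and miR-146a place 94 from miR-146b.

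White blood cell markers were higher in Thy1+ than in Thy1-, as miR-146a was. In the culture all 5 were below both Thy1+ libraries by CPM, as were 79.6% of the names tested. In the fit miR-142-3p and miR-223 were called lower, and nothing is read from the call of miR-150. The summed level of miR-142-3p, miR-142-5p, miR-150, miR-155 and miR-223 came to 937 CPM for the culture, to 14904 and 26540 CPM for the Thy1+ libraries, and to 2017 and 1346 CPM for the Thy1- libraries. miR-142-3p made up most of it, at 818 CPM in the culture, 14318 and 25271 in Thy1+, and 1953 and 1294 in Thy1-. All 5 rose in Thy1+ over Thy1- (edgeR adjusted p between 0.0116 and 0.0221), where 20.2% of all names tested were called higher. miR-150 had 58 and 56 counts in Thy1+ but 7 and 1 in Thy1-, the last below the floor of 3. It thus passed the expression filter only through Thy1+, and nothing is read from its call. In the culture over Thy1+, miR-142-3p (log2 fold change -2.91) and miR-223 (-6.52) fell, where 13.4% of all names were called lower. miR-150, at the floor of 3 counts in the culture, again passed the filter only through Thy1+, so its call is not read here either. miR-142-5p (-2.60) and miR-155 (1.05) did not pass. By CPM miR-155 was at 92.8 in the culture, below the 132 and 151 of the Thy1+ libraries, so its direction depends on the scaling. miR-155 is also among the names nearest to miR-146a. With either Thy1+ library left out, edgeR called 0 names in both comparisons, with 105 and 112 at an unadjusted p under 0.05 in Thy1+ over Thy1- and 117 and 142 in the culture over Thy1+. In the culture miR-223 had 4 counts, while miR-146a had 10027. miR-146a was at 2.10 per unit of this sum in the culture, 0.273 and 0.233 in Thy1+, and 0.118 and 0.0504 in Thy1-. The part of white blood cells in the level of either member was not tested.

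Other miRNAs known to respond to or act on Toll-like receptor and NF-kappaB signalling moved in both directions. Of the 14 such products in the tables, 13 were tested in Thy1+ over Thy1-, of which 2 rose and 3 fell, beside 20.2% higher and 7.76% lower among all names. Here and in the comparisons below, strands of the same hairpin count as separate products, though they are not independent. miR-155, which is induced in activated macrophages and lymphocytes, rose by a log2 fold change of 3.55 (SE 0.54, edgeR, Benjamini-Hochberg adjusted p = 0.0116), and miR-223, known from neutrophils and other myeloid cells, by 4.30 (SE 0.65). These 2 are also white blood cell markers. miR-147, which Toll-like receptor signals induce in mouse macrophages, fell by 2.64 (SE 0.56, edgeR adjusted p = 0.0200). The strands let-7i and let-7i* of the same hairpin fell by 1.77 and 1.86. The list median was -0.57, beside -0.07 for all names. Under total scaling 3 of these products rose and 1 fell. With either Thy1+ library left out, edgeR called 0 of them in each case, with 3 each time at an unadjusted p under 0.05, and no other tool was run with those libraries left out.

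In the culture over Thy1+, 6 of 14 products of this list rose and 1 fell, beside 8.94% higher and 13.4% lower among all names. miR-21, abundant in many proliferating and activated cells, rose by 3.64 (SE 0.52, edgeR adjusted p = 0.0104), together with miR-21*, let-7i, let-7i*, miR-125b-5p and miR-125b-3p. These 6 are 2 products each of miR-21, let-7i and miR-125b, so they are not independent. miR-223 fell, and miR-155 had a log2 fold change of 1.05 on the TMM scale that did not pass (edgeR adjusted p = 0.223). By CPM miR-155 was below both Thy1+ libraries. The list median was 1.56, beside -0.09 for all names. Under total scaling 2 rose and 4 fell. With either Thy1+ library left out, edgeR called 0, with 7 (replicate 1 left out) and 6 (replicate 2 left out) at an unadjusted p under 0.05.

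In the culture over Thy1-, 4 of 14 rose and 1 fell, beside 18.1% higher and 16.8% lower among all names. miR-155 rose by 4.55 (SE 0.62), miR-21 by 4.40 (SE 0.53), miR-125b-3p by 3.38 and miR-21* by 2.25, and miR-147 fell by 5.11 (edgeR adjusted p between 0.00224 and 0.0232). The list median was 0.79, beside -0.15 for all names. Under total scaling 3 rose and 2 fell. The number called was 2 without Thy1+ replicate 2 and 3 without Thy1- replicate 1.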

How the data were processed

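The authors deposited, for each library, a table of distinct sequence tags with their raw counts, placed on the mature mouse miRNAs of miRBase 12.0 per the file names, each with its position and up to 2 mismatches. The tags in the tables span 15 to 25 bases. DESeq is named, with no role, in the submitters' processing notes. For adapter removal and alignment the tool was not given in the sources used here, nor was the build. Here a tag was assigned to the name of its best placement, ties were split equally and sums rounded. The table was fitted whole with edgeR 4.0.16 (quasi-likelihood, TMM, filterByExpr, two-sided, Benjamini-Hochberg over all names, threshold 0.05) in R 4.3.3. The 4 fresh libraries served Thy1+ over Thy1-, and all 5 the culture comparisons, with the lone culture library taken to be as variable as the others. The fit was also run on counts simulated with the same relative spread for every name. That spread need not be the one of these libraries, so nothing is read from that run. Alternatives were RLE or total scaling, no filter, DESeq2 1.42.0, limma-voom (limma 3.58.1), other tag selections, a replicate block and leaving out libraries. Sequences are from RefSeq, and both members matched its table by name. The miRNAs named besides the pair were its nearest in likeness, the marker lists and the NF-kappaB list. The pair, lists and tests were chosen with earlier results of these data known.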

Additional observations from a re-analysis of the deposited data

How the results depend on the processing

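The miR-146a share of the pair moved by less than 1 SD (in the culture, stayed in its interval) under every tag selection tried. Leaving out 1 library of a fresh group only returns the share of its other library (74.9% or 86.1% in Thy1+, 25.5% or 35.2% in Thy1-), so it checks nothing further. Log2 fold changes moved by less than the replicate SD with RLE scaling, no filter, DESeq2, limma-voom, the tag selections and, for Thy1+ over Thy1-, the block. Total scaling gave -1.39 for miR-146a and 2.54 for miR-146b in culture over Thy1+, and 3.68 and 4.43 in culture over Thy1-. On the TMM scale, chosen after seeing the data, the summed pair moved to 8.50-fold (Thy1+ over Thy1-), 4.86-fold (culture over Thy1+) and 41.3-fold (culture over Thy1-). Total scaling gave 177 names called in culture over Thy1+ (9 higher, 168 lower) in place of 105, and in Thy1+ over Thy1- 110 higher and 11 lower in place of 86 and 33. In culture over Thy1- it gave 34 higher and 123 lower in place of 85 and 79. With replicate number as a block, 32 names and 3 of the NF-kappaB list were called in Thy1+ over Thy1-. The numbers are not stated to pair samples, and the replicate differences of the fractions had a Pearson r of -0.03 across 343 names (names are not independent replicates). With 1 library left out, values ranged from 4.001 to 5.69 (miR-146a) and 0.98 to 2.05 (miR-146b) in Thy1+ over Thy1-, from -0.0112 to 0.29 and 3.52 to 4.57 in culture over Thy1+, and from 4.24 to 5.56 and 5.17 to 5.83 in culture over Thy1-. Names called ranged from 0 to 137, 0 to 120 and 41 to 128, and list products from 0 to 5, 0 to 8 and 2 to 5. The counts of 0 came with either Thy1+ library left out, by edgeR, with 105 to 142 names at an unadjusted p under 0.05; the cause was not tested. The difference in the 5′ end share between members turned to -0.0184 with perfect tags, to -0.19 with tags holding both own bases, and ranged from -0.19 to 0.18 with 1 library left out. The length and untemplated share differences kept their direction under all alternatives run.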
